A study of Mus musculus with 4 samples.

Results

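The genes described are 7 of the 27998 in the deposited count matrix: Fabp6, Slc10a2, Slc51a, Slc51b, Nr1h4, Nr0b2 and Fgf15. They were taken by name as the genes of bile acid uptake, binding and export in the ileum and of signalling through the bile acid receptor FXR, and all 7 were in the matrix. The cells came from small intestines of mice kept on a ketogenic diet (KetoDiet, 2 libraries) or on a control diet (ControlDiet, 2 libraries), and the deposited cell table gives the mice as male. A ketogenic diet is rich in fat and very poor in carbohydrate. The sources used here do not give strain, genotype, age, time on the diet, the number of mice per library or the segment of intestine that was taken. The libraries were made with 10x Single Cell 3' chemistry, which counts RNA molecules by unique molecular identifiers (UMIs). Nothing states that the libraries came from separate animals, so p-values cover only library-to-library spread, part of which may be technical.

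Bile acids secreted by the liver are recovered in the last part of the small intestine. There the sodium-coupled transporter Slc10a2 (ASBT) takes them up from the lumen, the cytosolic protein Fabp6 binds them, and the heterodimer of Slc51a and Slc51b (OST-alpha and OST-beta) exports them across the basolateral membrane. Inside the enterocyte bile acids activate FXR, encoded by Nr1h4, a nuclear receptor that induces Fabp6, Slc51a, Slc51b, the corepressor Nr0b2 (SHP) and the hormone Fgf15. Fgf15 travels to the liver, where it lowers bile acid synthesis. Fabp6 and Slc10a2 are known as markers of the ileum, while Nr1h4 is transcribed along the whole intestine.

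The ketogenic libraries held 3194 and 3414 cells with 27316428 and 30292457 UMIs, and the control libraries held 3549 and 4896 cells with 29186729 and 34106639 UMIs. Enterocytes, the absorptive cells, numbered 1748 and 1799 in the ketogenic libraries and 2156 and 2771 in the control libraries. Of the 9 enterocyte markers 7 were highest in the cells annotated as enterocytes, the exceptions being Fabp2 and Vil1. Immune transcripts (8 genes) summed to 0.335 and 15.2 CPM (UMIs of a gene divided by all UMIs of the same cells, scaled to 1000000) in enterocytes of ketogenic libraries 1 and 2, against 6.17 and 8.53 CPM in control libraries 1 and 2, and no immune UMI was found in the Fabp6-rich cells described later. A total of 109 cell barcodes occurred in more than 1 library, and none of these held a Fabp6 UMI in more than 1 of them.

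Fabp6 lies on the minus strand of chromosome 11 (43596049 to 43601540), Slc51a on the minus strand of chromosome 16 (32474504 to 32487879) and Slc51b on the minus strand of chromosome 9 (65412714 to 65422955). Nr1h4 is on chromosome 10 (89454234 to 89533585, minus strand), Nr0b2 on chromosome 4 (133553376 to 133556536, plus strand), Slc10a2 on chromosome 8 (5083219 to 5105351, minus strand) and Fgf15 on chromosome 7 (144896531 to 144900953, plus strand). These are positions of protein-coding genes in GENCODE M21 on GRCm38, the same build as mm10. FXR, as a dimer with the retinoid X receptor, classically binds an inverted repeat of AGGTCA with 1 base between the copies, so the motif searched was AGGTCA, any base, then TGACCT, which reads the same on both strands. The 300 bases from 250 before to 50 after the gene start were searched in the RefSeq promoters of GRCm38.p6, which held 6 of the 7 genes. The 250 bases before the start are shown for the 3 genes with the closest matches. Capitals mark the closest matches, and positions count back from the RefSeq start.
Fabp6: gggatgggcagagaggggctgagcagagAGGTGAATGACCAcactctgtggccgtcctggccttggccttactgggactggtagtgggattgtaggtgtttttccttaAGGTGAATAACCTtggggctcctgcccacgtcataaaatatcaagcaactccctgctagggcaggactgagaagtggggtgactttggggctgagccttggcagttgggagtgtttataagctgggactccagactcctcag
Slc51a: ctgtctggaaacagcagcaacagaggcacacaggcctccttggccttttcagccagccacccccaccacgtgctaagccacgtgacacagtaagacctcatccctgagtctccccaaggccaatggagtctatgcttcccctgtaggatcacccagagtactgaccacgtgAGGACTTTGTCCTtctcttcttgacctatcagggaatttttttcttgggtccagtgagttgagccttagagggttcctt
Slc51b: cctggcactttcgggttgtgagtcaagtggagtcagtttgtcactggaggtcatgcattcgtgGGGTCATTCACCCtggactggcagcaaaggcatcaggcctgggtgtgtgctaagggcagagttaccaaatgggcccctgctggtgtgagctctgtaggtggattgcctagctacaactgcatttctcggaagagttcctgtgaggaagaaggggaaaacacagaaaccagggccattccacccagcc
The windows shown are chr11:43601563-43601812 for Fabp6, chr16:32487880-32488129 for Slc51a and chr9:65422774-65423023 for Slc51b, all read on the minus strand. The RefSeq start is the GENCODE start for Slc51a and lies 22 bases upstream of it for Fabp6, but for Slc51b it lies 182 bases inside the GENCODE gene, so 182 of the 250 bases shown for Slc51b are within that gene. Fabp6 had 2 matches that differed from the motif at 2 of its 12 fixed letters, starting at positions -222 and -142. A match as close or closer was present in 1.35% of the promoters of 27025 genes. The closest matches of Slc51a (position -79) and Slc51b (position -187) differed at 3 letters, as in 12.9% of promoters with at most that number. Those of Slc10a2, Nr1h4 and Nr0b2 differed at 4 letters, and the Nr1h4 window lies wholly inside the GENCODE gene. A match describes these letters only and is not a measurement of binding.

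Among the 7 annotated cell types, Fabp6, Slc51a and Slc51b were transcripts of enterocytes. Fabp6 averaged 144 ± 93.4 CPM over the 4 libraries in enterocytes (SD, n = 4) and 14.3 ± 19.2 CPM in transit amplifying cells, the next type, and the library values of these types did not overlap. Slc51a averaged 63.7 ± 22.2 CPM in enterocytes and 16.9 ± 3.82 CPM in transit amplifying cells, again without overlap. Slc51b averaged 23.5 ± 12.96 CPM in enterocytes and 4.01 ± 1.44 CPM in transit amplifying cells, without overlap. Below transit amplifying cells no neighbouring types in the order differed beyond the spread between libraries for any of the 3. The FXR gene Nr1h4 had no such step: it averaged 18.2 ± 3.34 CPM in enterocytes, 15.5 ± 3.43 in goblet cells, 12.6 ± 8.75 in enteroendocrine cells, 10.5 ± 3.49 in stem cells, 10.3 ± 3.52 in transit amplifying cells, 10.1 ± 3.78 in tuft cells and 5.97 ± 3.37 in Paneth cells, and each neighbouring pair overlapped. Nr0b2 was low, at 4.71 ± 1.45 CPM in stem cells, 4.15 ± 1.30 CPM in enterocytes and 4.06 ± 2.23 CPM in transit amplifying cells, which overlapped. Slc10a2 averaged 0.441 ± 0.252 CPM in enterocytes, and Fgf15 was found in enterocytes only, at 0.147 ± 0.110 CPM.

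**Figure D1:**
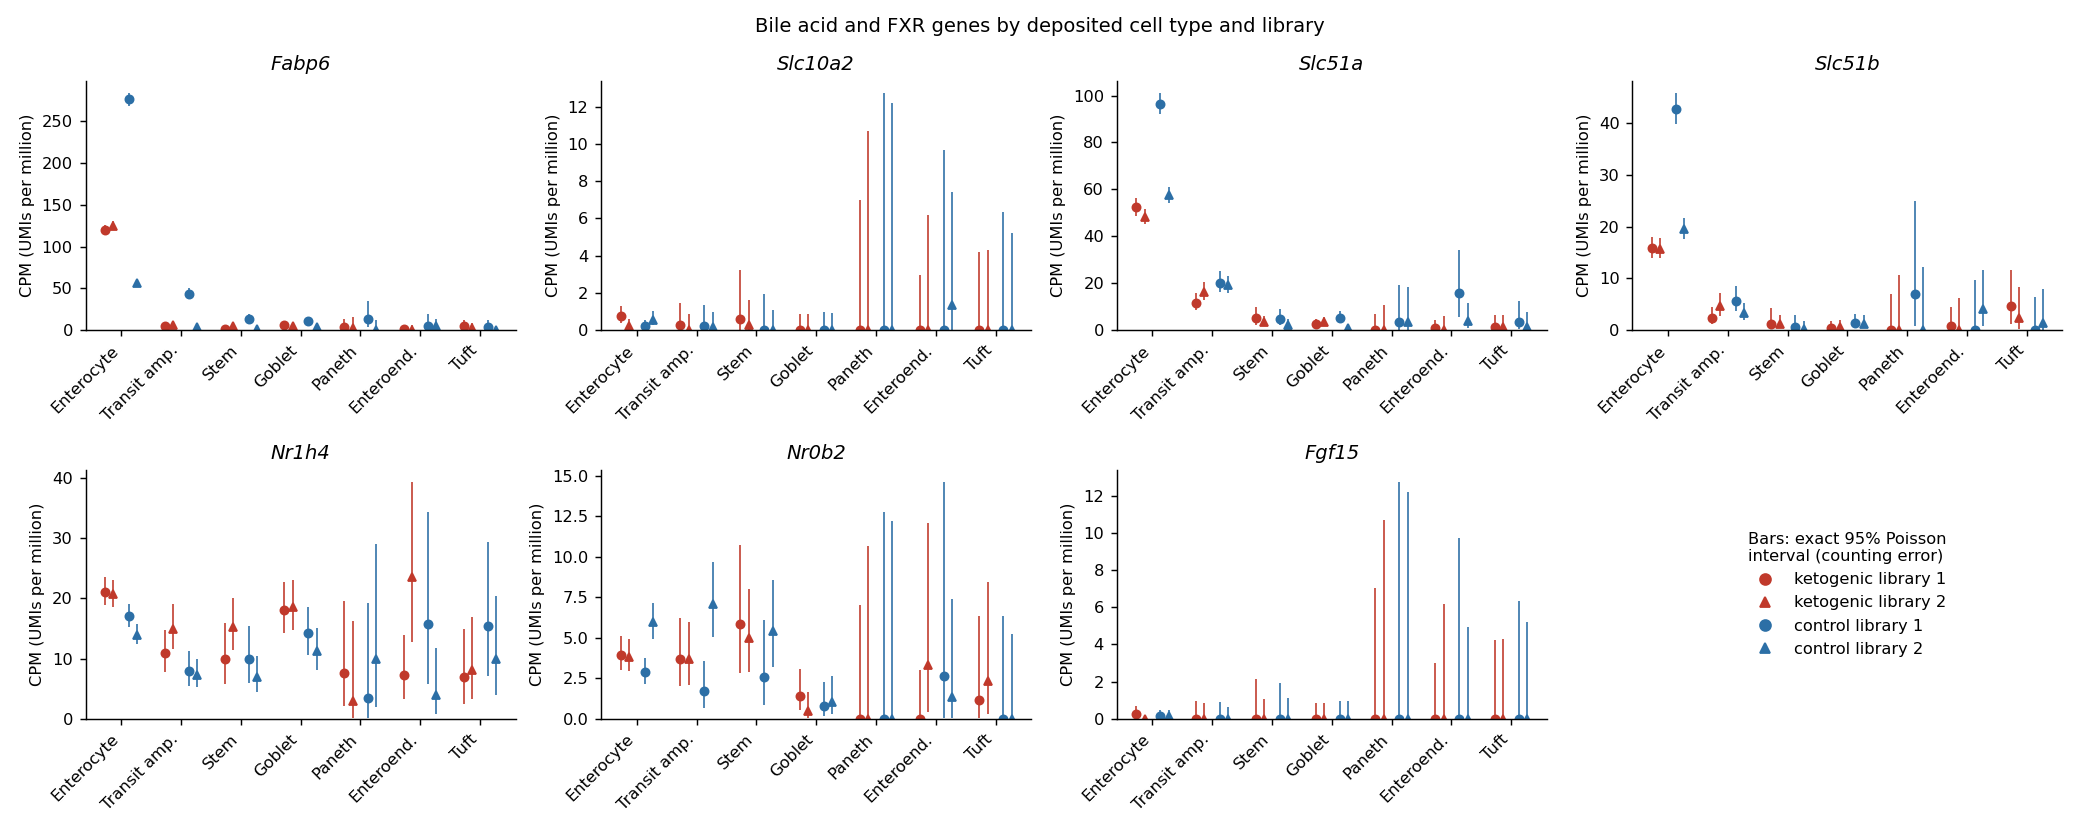
Level of each of the 7 genes (CPM, vertical axes) in the 7 deposited cell types, with ketogenic libraries in red to the left of control libraries in blue; bars are exact 95% Poisson intervals, which cover counting error only. Fabp6, Slc51a and Slc51b stand out in enterocytes, where control library 1 is the highest, while Nr1h4 is spread over all types.

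Goblet cells, which do not take up bile acids, give a measure of Fabp6 RNA that is free in the suspension. The ratio of its CPM in goblet cells to that in enterocytes was 0.0489 and 0.0407 in ketogenic libraries 1 and 2, against 0.0379 and 0.0591 in control libraries 1 and 2. The lowest such ratio among the 9 enterocyte markers was 0.0274 and 0.0442 in the ketogenic libraries and 0.0285 and 0.0363 in the control libraries, so Fabp6 in goblet cells was near the level of the enterocyte transcripts that goblet cells carry least. The same ratio for Nr1h4 was 0.858 and 0.895 in the ketogenic libraries and 0.829 and 0.805 in the control libraries. Nr1h4 in goblet cells was thus far above that level in every library.

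Fabp6 was held by very few enterocytes. Its level in enterocytes was 120.0 CPM in ketogenic library 1 and 125 CPM in ketogenic library 2, against 276 CPM in control library 1 and 56.3 CPM in control library 2. The control libraries enclosed both ketogenic libraries. A Fabp6 UMI was found in 44 and 104 ketogenic enterocytes and in 242 and 79 control enterocytes. In ketogenic library 1 a single cell carried 1030 of the 1793 UMIs (57.4%), and the top cell carried 681 of 2048 (33.3%) in ketogenic library 2, against 757 of 5019 (15.1%) in control library 1 and 299 of 1096 (27.3%) in control library 2. Without that top cell the levels were 51.1 and 83.3 CPM in the ketogenic libraries and 235 and 41.0 CPM in the control libraries, so the value of ketogenic library 1 rested mainly on 1 cell. The number of cells needed to reach 50% of the Fabp6 UMIs was 1 and 3 in the ketogenic libraries and 10 and 3 in the control libraries. Slc51a was much more widely spread, with 96 and 75 ketogenic cells and 187 and 134 control cells needed for 50% of its UMIs.

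**Figure D2:**
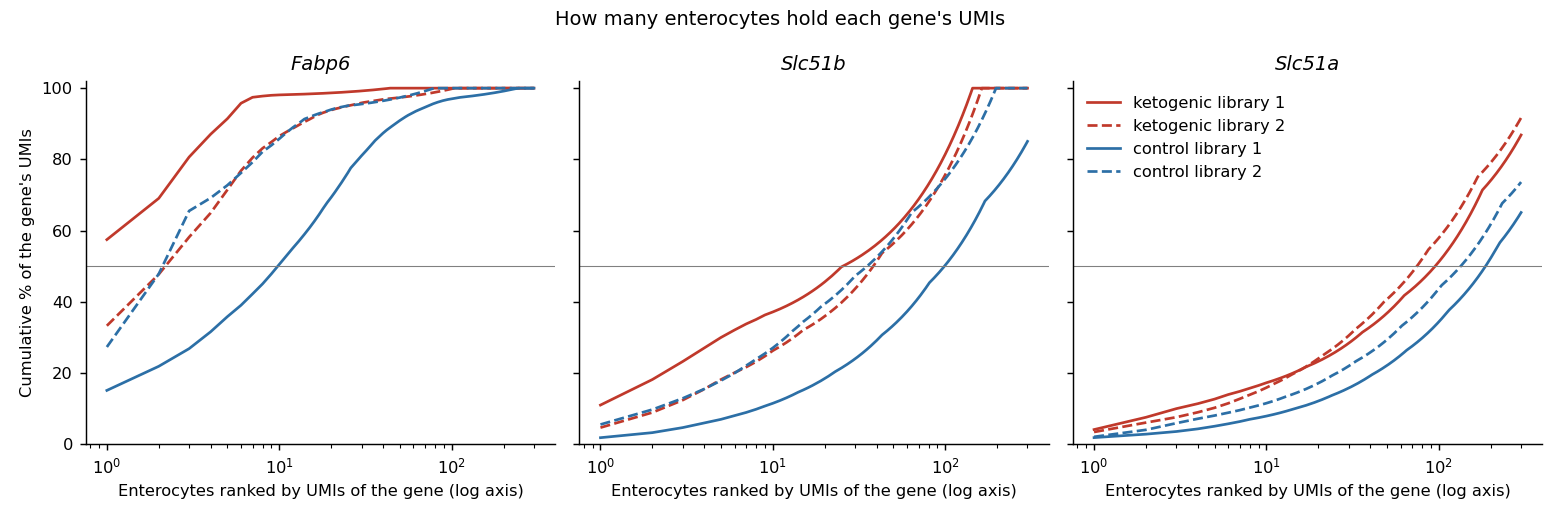
Cumulative percentage of the UMIs of Fabp6, Slc51b and Slc51a (vertical axis) against enterocytes ranked by their UMIs of that gene (horizontal log axis, the 300 highest cells), by library; the grey line is at 50%. Between 1 and 10 cells carry 50% of Fabp6, whereas 75 to 187 cells carry 50% of Slc51a.

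Cells with at least 10 Fabp6 UMIs per 10000 UMIs are called Fabp6-high here, a range on a continuous measure rather than a cell type. They made up 7 of 1748 enterocytes (0.400%, exact 95% binomial interval 0.161% to 0.823%) in ketogenic library 1 and 22 of 1799 (1.22%, 0.768% to 1.85%) in ketogenic library 2. In the control libraries they were 69 of 2156 (3.20%, 2.50% to 4.03%) and 15 of 2771 (0.541%, 0.303% to 0.891%). The share was highest in control library 1, and that of control library 2 lay between the shares of the ketogenic libraries. The exact two-sided permutation test over libraries gave p = 0.667, where the smallest p that 2 against 2 libraries allow is 0.333. The highest cell below the threshold had 9.96 and 9.54 Fabp6 UMIs per 10000 in the ketogenic libraries and 9.72 and 7.90 in the control libraries, and the lowest cell above it had 47.5 and 10.03 in the ketogenic libraries and 10.03 and 10.18 in the control libraries. These few cells held 97.4% and 93.2% of the Fabp6 UMIs of ketogenic enterocytes and 93.6% and 91.1% of those of control enterocytes. Outside enterocytes only control library 1 had such cells, with 4 transit amplifying cells and 1 stem cell.

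After thinning each cell to 2000 UMIs, 0.973% and 2.61% of ketogenic enterocytes and 6.22% and 1.25% of control enterocytes had a Fabp6 UMI (2.52% and 5.78%, against 11.2% and 2.85%, before thinning). The same shares in goblet cells were 1.26% and 1.44% in the ketogenic libraries and 1.74% and 0.729% in the control libraries (4.83% and 4.11%, against 6.96% and 2.12%, before thinning). Median depth was 9323 and 9629 UMIs in ketogenic enterocytes, 8413.5 and 7342 in control enterocytes, 9268 and 9074 in ketogenic goblet cells, and 8634 and 6896 in control goblet cells. In ketogenic library 1 the enterocyte share was below the goblet share, so it is read as background, apart from the 7 Fabp6-high cells. Thinning left out 126 enterocytes and 17 goblet cells of control library 2 that were too shallow.

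The Fabp6-high enterocytes also carried more of several other bile acid genes, described here without a test since Fabp6 chose the cells. Slc51a reached 1184 and 492 CPM in the Fabp6-high cells of ketogenic libraries 1 and 2, against 44.7 and 39.1 CPM in their enterocytes with 0 Fabp6 UMIs. In control libraries 1 and 2 it reached 349.8 and 658 CPM in the Fabp6-high cells, against 81.6 and 52.2 CPM in those with 0. Slc51b reached 723 and 229 CPM in the ketogenic Fabp6-high cells, against 11.4 and 11.7 CPM in those with 0, and 145 and 475 CPM in the control Fabp6-high cells, against 36.4 and 15.4 CPM in those with 0. Nr1h4 followed with 76.7 and 108 CPM, against 20.6 and 17.7 CPM, in the ketogenic libraries and 89.3 and 48.7 CPM, against 13.3 and 13.01 CPM, in the control libraries. All 3 were higher in the Fabp6-high cells in each of the 4 libraries. Slc10a2 counts were few, but 11 of its 11 and 2 of its 4 ketogenic enterocyte UMIs, and 3 of its 4 and 9 of its 11 control enterocyte UMIs, lay in Fabp6-high cells. Fgf15 had 4 and 0 UMIs in ketogenic enterocytes, of which 2 and 0 were in Fabp6-high cells, and 3 and 3 UMIs in control enterocytes, of which 3 and 2 were. Nr0b2 had 0 and 1 UMIs in the ketogenic Fabp6-high cells and 0 and 0 in the control ones. Enterocytes with a Fabp6 UMI but below the threshold gave the same counts, 0 and 1 against 0 and 0. These cells held 408616 to 1735745 UMIs per library. In enterocytes with 0 Fabp6 UMIs Nr0b2 stood at 4.08 and 4.00 CPM in the ketogenic and 3.30 and 6.21 CPM in the control libraries. Nr0b2 was thus scarcer where Fabp6 was found, unlike Slc51a and Slc51b, and the reason was not tested.

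Of the 9 genes on the proximal list, 3 transcription factors were lower in the same cells in each library, 2 of them down to few or no UMIs. The third, Gata4, was only slightly lower in control library 2. Onecut2, a factor of the proximal small intestine, stood at 0 and 17.3 CPM in the Fabp6-high cells of the ketogenic libraries, against 141 and 99.7 CPM in their cells with 0 Fabp6 UMIs. In the control libraries it stood at 7.57 and 6.09 CPM in Fabp6-high cells, against 95.9 and 127 CPM in cells with 0. Pdx1, the duodenal factor, had no UMI in the Fabp6-high cells of any library, and 6.09 to 11.03 CPM in the other class. The Fabp6-high cells held only 91226 to 660440 UMIs per library, so a Pdx1 count of 0 in any 1 library is near the floor. Gata4, which is known to be silent in the ileum, was lower in the Fabp6-high cells of each of the 4 libraries, at 0 and 17.3 CPM in the ketogenic libraries and 22.7 and 36.5 CPM in the control libraries, against 39.7 to 48.7 CPM in cells with 0 Fabp6 UMIs. These values rest on 0 and 4 UMIs in the ketogenic and 15 and 6 UMIs in the control libraries. In control library 2 the 36.5 CPM stood against 40.9 CPM, practically equal. Osr2, on the list of distal transcripts, was higher in each library, at 175 and 129.6 CPM in the ketogenic Fabp6-high cells and 144 and 128 CPM in the control ones, against 23.3 to 38.1 CPM in the cells with 0. Several other genes of the proximal list did not follow the transcription factors. The iron exporter Slc40a1 was higher in the Fabp6-high cells of 3 of 4 libraries, at 65.8 and 86.4 CPM in the ketogenic libraries and 48.5 and 12.2 CPM in the control libraries, against 8.39 to 15.9 CPM in cells with 0. The peptidase Ace was also higher in 3 of 4, at 121 and 12.96 CPM in the ketogenic and 7.57 and 60.9 CPM in the control Fabp6-high cells, against 6.58 to 8.19 CPM in cells with 0. Lct, which encodes lactase, and Ms4a10 were higher in 2 of 4 libraries each. Adh6a, an alcohol dehydrogenase, was practically equal in ketogenic library 1, at 142.5 CPM in Fabp6-high cells against 153.9 CPM in cells with 0. It was lower in ketogenic library 2, at 4.32 CPM against 95.5 CPM. In the control libraries it was lower too, at 13.6 and 73.1 CPM against 282 and 253 CPM. Cybrd1 had no UMI in the Fabp6-high cells. It was near the floor in the cells with 0 as well, so this absence does not show a lower level.

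Enterocyte maturity transcripts differed between the Fabp6-high cells of the libraries. Apoa1, an apolipoprotein of mature villus enterocytes, reached 22790 and 510 CPM in the Fabp6-high cells of ketogenic libraries 1 and 2 and 72.7 and 5250 CPM in those of control libraries 1 and 2. Fabp2, a fatty acid binding protein, stood at 35692 and 1369 CPM in the ketogenic and at 404 and 5390 CPM in the control Fabp6-high cells. The same pair of libraries, ketogenic 1 and control 2, was high for both, and these were also the libraries with the fewest Fabp6-high cells. Slc51a and Slc51b were highest in the Fabp6-high cells of those 2 libraries as well. With the Fabp6-high threshold raised to 50, ketogenic libraries 1 and 2 had 6 and 7 such cells, practically equal numbers. The part of maturity in the differences between libraries was not tested.

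**Figure D3:**
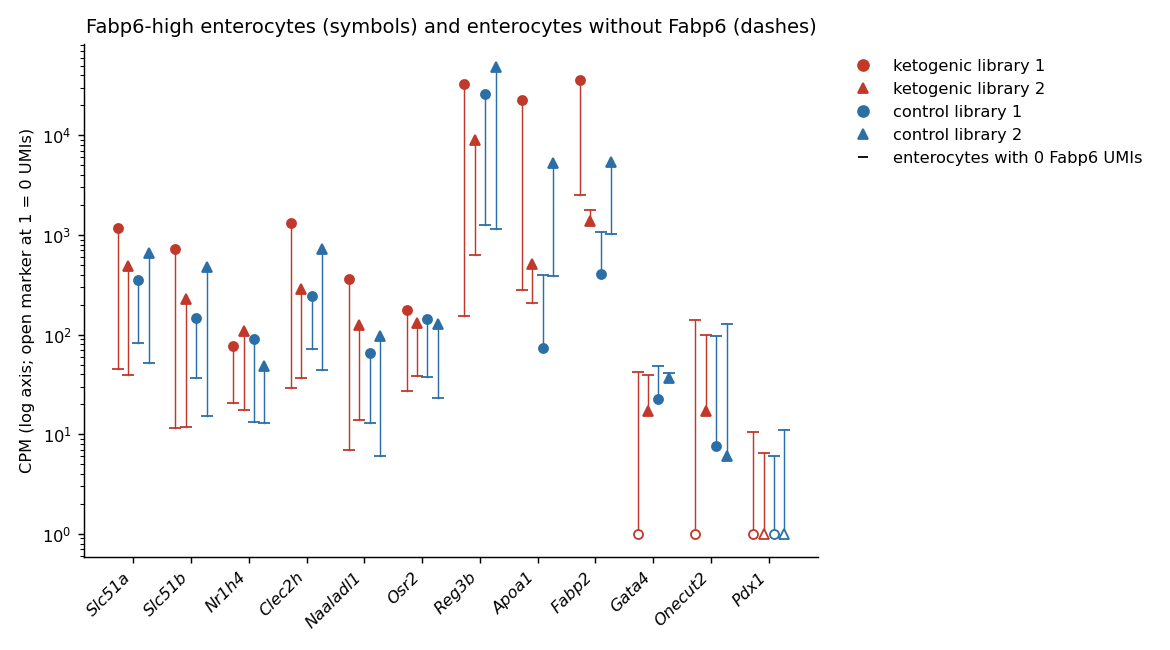
Levels (CPM, log axis) of 12 genes in Fabp6-high enterocytes (symbols) and in enterocytes with 0 Fabp6 UMIs (dashes), joined within each library, ketogenic in red to the left of control in blue; open symbols at 1 mark genes with 0 UMIs. Slc51a, Slc51b, Nr1h4, Clec2h, Naaladl1, Osr2 and Reg3b are higher in the Fabp6-high cells of all 4 libraries, and Gata4, Onecut2 and Pdx1 are lower in all 4.

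Across all enterocytes, 7493 genes were ranked by the mean over libraries of their within-library Pearson correlation with Fabp6 (log scale, per cell). The highest were Reg3g (0.39) and Reg3b (0.39), antimicrobial lectins, then Guca2a (0.34), which encodes guanylin, Slc51b (0.33), Slc51a (0.26), Lgals3 (0.24), Clec2h (0.22), Gsdmc4 (0.21), Spink1 (0.21) and Mep1b (0.21). The pair of bile acid exporter subunits thus took the 4th and 5th places, and Nr1h4 was 22nd (0.16). The lowest were Cps1 (-0.13), Slc12a2 (-0.10), Onecut2 (-0.10), Amica1 (-0.10) and Ckb (-0.09). Cells of 1 library share its depth and RNA background, the values are weak, and they are given as a description only. Reg3b stood at 32929 and 9060 CPM in the ketogenic Fabp6-high cells, against 152 and 633 CPM in ketogenic cells with 0 Fabp6 UMIs, and at 25957 and 48219 CPM in the control Fabp6-high cells, against 1249 and 1153 CPM in control cells with 0.

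For 4 of the region-linked transcripts the libraries differed, and not along the line of diet. In enterocytes Onecut2 stood at 139 and 95.6 CPM in ketogenic libraries 1 and 2, against 88.8 and 125 CPM in control libraries 1 and 2. Pdx1 stood at 10.2 and 6.15 CPM in the ketogenic libraries and 5.89 and 10.9 CPM in the control libraries. Ketogenic library 2 and control library 1 were the lower ones for both. The opposite pattern held for Osr2, at 28.4 and 41.4 CPM in the ketogenic libraries and 43.2 and 25.2 CPM in the control libraries, and for Naaladl1, at 9.57 and 16.7 CPM in the ketogenic libraries and 16.1 and 7.14 CPM in the control libraries. Not every distal transcript followed Osr2. Cubn, on the distal list, went the other way, at 1.07 and 0.305 CPM in the ketogenic and 0.220 and 0.771 CPM in the control libraries. It had only 4 to 16 UMIs per library. The ileal marker Slc10a2 did likewise, with 11 and 4 UMIs in the ketogenic and 4 and 11 in the control libraries. The log2 ratio of Onecut2 to Osr2 was 2.29 and 1.21 in the ketogenic libraries and 1.04 and 2.31 in the control libraries. The 2 libraries with the lower ratio, 1 of each diet, had the most Fabp6-high cells, and 4 libraries are too few for a correlation. Between the ketogenic libraries this difference depended on the Fabp6-high threshold. With the threshold raised to 50, the shares were 0.343% and 0.389% in ketogenic libraries 1 and 2, practically equal. In control libraries 1 and 2 they were then 1.25% and 0.108%. Other genes of the region lists did split by diet. On the proximal list 4 of 9 genes were lower in both ketogenic libraries without overlap, where 19.3% of all genes tested were. Adh6a stood at 152 and 93.2 CPM in the ketogenic libraries and 265 and 248 CPM in the control libraries. Slc40a1 stood at 11.1 and 9.81 CPM in the ketogenic libraries and 16.03 and 15.8 CPM in the control libraries. The others were Lct, at 5.55 and 6.27 CPM against 8.43 and 11.6 CPM, and Cybrd1, which was below 2 CPM in each library. On the distal list Muc3 and Clec2h were lower and Slc23a1 higher without overlap, the last at most 0.401 CPM in any library.

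**Figure D4:**
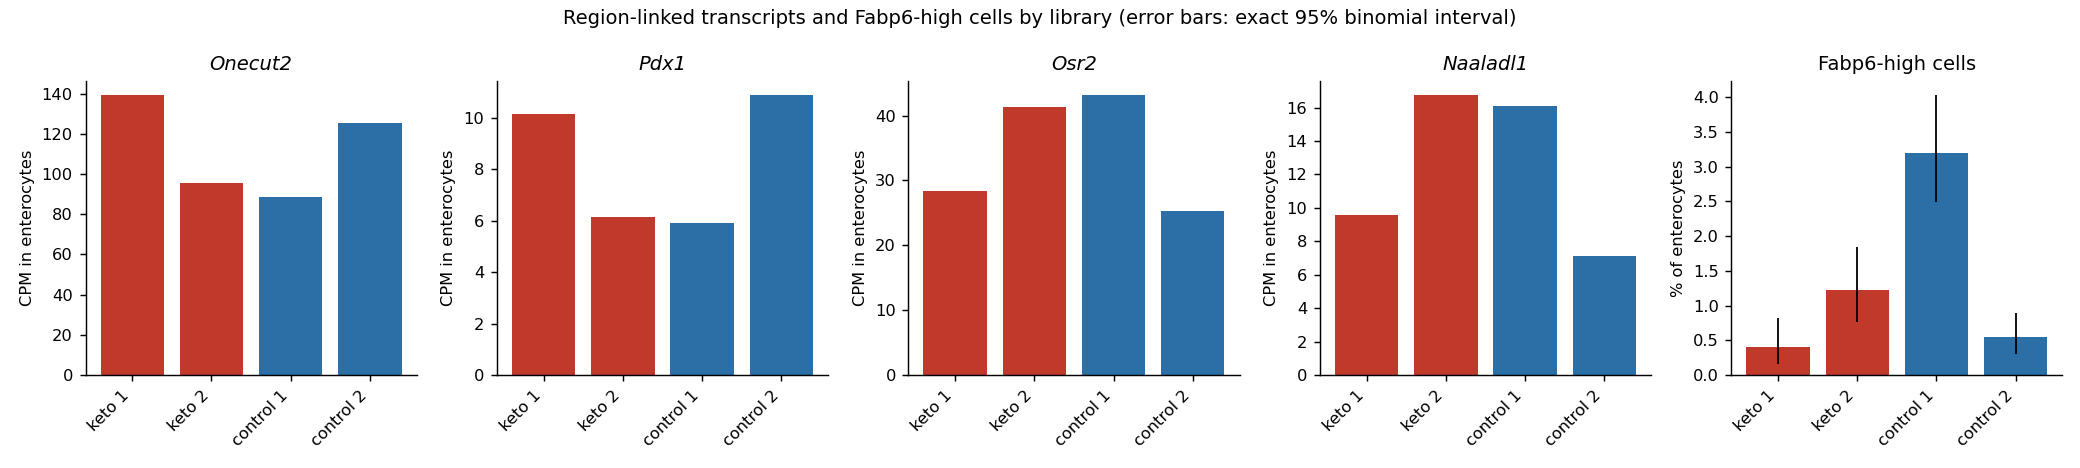
Levels of Onecut2, Pdx1, Osr2 and Naaladl1 in enterocytes (CPM) and the percentage of enterocytes that are Fabp6-high, with 1 bar per library, ketogenic (keto) in red to the left of control in blue; error bars are exact 95% binomial intervals. Ketogenic library 2 and control library 1 are low for Onecut2 and Pdx1 and high for Osr2, Naaladl1 and Fabp6-high cells. With the Fabp6-high threshold raised to 50 (not shown), ketogenic libraries 1 and 2 are practically equal, at 0.343% and 0.389%.

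In enterocytes, with all 4 libraries and no covariate, no gene of the enterocyte region lists was called between the diets by edgeR. Of 8 distal enterocyte genes 7 could be tested in enterocytes and none was called by edgeR's quasi-likelihood test or by DESeq2, with 2 at an unadjusted p under 0.05 by edgeR and a median log2 fold change of -0.03. Of 9 proximal enterocyte genes all were tested, and none was called by edgeR, with 4 at an unadjusted p under 0.05, a median of -0.12 and 1 call by DESeq2. Of all 11697 genes tested, 9.91% had an edgeR unadjusted p under 0.05, and their median was 0.02. Adh6a was called in transit amplifying cells, at a log2 fold change of -1.46 (edgeR adjusted p = 0.00297), and in goblet cells, at -1.17 (edgeR adjusted p = 0.00423). In enterocytes it was called with the replicate block, at -1.10 (edgeR adjusted p = 0.0379), and with the log2 ratio of Onecut2 to Osr2 as a covariate, at -1.11 (edgeR adjusted p = 0.0344), where Muc3 was called too, at -0.97 (edgeR adjusted p = 0.0463). Both fits spend a further coefficient on only 4 libraries. Calls among all enterocyte genes rose from 21 to 137 with the block and to 118 with the covariate. Muc3 and Clec2h on the distal list were both lower in both ketogenic libraries, Muc3 at 68.9 and 74.1 CPM, against 196 and 105 CPM, and Clec2h at 37.3 and 43.7 CPM, against 80.4 and 49.8 CPM. Enterocytes with a UMI of the distal list made up 30.8% and 30.5% of the ketogenic libraries and 48.7% and 32.7% of the control libraries after thinning to 2000 UMIs, with an exact two-sided permutation p = 0.333. Without thinning the shares were 62.4% and 67.4% in the ketogenic libraries and 78.5% and 58.4% in the control libraries (exact permutation p = 1), and in goblet cells, thinned, 9.65% to 13.9%. Most enterocytes thus carried such a UMI at full depth, so it does not by itself place a cell in the ileum. The segment of each cell is unknown, and how far this list is restricted to the ileum was not tested. Among enteroendocrine cells, the ileal hormone transcript Nts had 0 and 53 UMIs in the ketogenic libraries and 0 and 0 in the control libraries. Pyy, a distal hormone, stood at 28.3 and 156 CPM in the ketogenic and 44.7 and 6.66 CPM in the control enteroendocrine cells, and the duodenal hormone Gip at 4167 and 9947 CPM in the ketogenic and 7955 and 2930 CPM in the control ones. The distal hormone gene Gcg did split by diet, at 2642 and 2218 CPM in the ketogenic and 292 and 1121 CPM in the control ones. The share of all genes that did so in these cells is not given here. Pyy and Gip were each higher in ketogenic library 2 and control library 1 than in the other library of the same diet. Gip thus did not follow Onecut2 and Pdx1, which were lower in those libraries. Markers of both ends of the small intestine were present in each diet. In the control libraries, however, Nts was absent and Pyy had only 17 and 5 UMIs. The part of the region mix in the diet comparisons that follow was not tested beyond the alternatives named beside them.

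The design compares the diets within each cell type. Of the 7 genes 5 could be tested in enterocytes, and none was called at an adjusted p under 0.05 by edgeR's quasi-likelihood test or by DESeq2, while 3 had an unadjusted p under 0.05 by edgeR and 1 by DESeq2. The background was 0.18% of 11697 genes called by edgeR, with 9.91% at an unadjusted p under 0.05 by edgeR and 6.37% by DESeq2. Over all cells 6 were tested and none was called (background 0.172%), with 3 at an unadjusted p under 0.05 by edgeR and 2 by DESeq2, as for 11% and 7.74% of all genes. In transit amplifying cells 5 were tested with none called and 3 at an unadjusted p under 0.05 (background 0.715% called and 9.21% at such a p). In stem cells 4 were tested (background 0.336% called and 6.42% at an unadjusted p under 0.05) and in goblet cells 3 (background 0.521% and 8.96%), each with none called by edgeR and 1 at an unadjusted p under 0.05. In enteroendocrine cells only Nr1h4 was tested and not called (background 0.0582%), and in Paneth and tuft cells no gene of the 7 passed the filter on low counts.

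Fabp6 gave no diet difference beyond the spread between libraries. In enterocytes its log2 fold change, ketogenic over control, was -0.43 ± 0.59 (SE; edgeR adjusted p = 0.836), and over all cells it was -0.64 ± 0.64 (edgeR adjusted p = 0.757). The direction rested on control library 1. Without it the enterocyte value was 1.11 with an edgeR adjusted p = 0.000403, and without control library 2 it was -1.18 with an edgeR adjusted p = 0.000108, so either control library alone gave a call and the calls had opposite signs. With the log2 ratio of Onecut2 to Osr2 as a covariate, an alternative chosen after seeing the data, the value was 0.07 (edgeR adjusted p = 0.986). Across enterocytes Onecut2 ranked 7491st and Osr2 31st of 7493 genes by correlation with Fabp6. The ratio is thus not independent of Fabp6, so this value cannot separate region mix from diet. Transit amplifying cells had 4.78 and 5.99 CPM of Fabp6 in the ketogenic libraries and 43.0 and 3.54 CPM in the control libraries. Control library 1 alone stood apart, and 127 of its 174 UMIs came from its 4 Fabp6-high transit amplifying cells. The log2 fold change was -1.97 ± 0.79 (edgeR adjusted p = 0.456), and without control library 1 it was 0.60. The diet effect in enterocytes minus that in transit amplifying cells was 1.51 ± 0.28 on the log2 scale for Fabp6 (edgeR adjusted p = 0.0137). That made Fabp6 the only call of the 5 genes tested for this difference, with 0.0871% of all genes called, but without control library 1 it was 0.52 (edgeR adjusted p = 1) and no longer a call.

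Slc51a and Slc51b, the exporter subunits, were lower in both ketogenic libraries than in both control libraries, but neither passed the test. Slc51a stood at 52.4 and 48.4 CPM in ketogenic enterocytes and at 96.5 and 57.6 CPM in control enterocytes. The groups did not overlap, as for 19.3% of all genes tested in this direction, and control library 1 was well above the other 3 libraries. Its log2 fold change was -0.60 ± 0.22 (edgeR adjusted p = 0.443). Slc51b stood at 15.9 and 15.8 CPM in ketogenic enterocytes and at 42.7 and 19.6 CPM in control enterocytes, with a log2 fold change of -0.97 ± 0.32 (edgeR adjusted p = 0.397). Again control library 1 was far above the rest and control library 2 was closer to the ketogenic libraries than to it. Without control library 1 the values were -0.20 for Slc51a and -0.32 for Slc51b and neither was called, and without control library 2 they were -0.94 (edgeR adjusted p = 0.00115) and -1.44 (edgeR adjusted p = 8.5e-05). With no filter on low counts Slc51b was called in enterocytes, at -0.98 (edgeR adjusted p = 0.0337), and over all cells both were, as given under the dependence on processing.

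The lower exporter levels were not held by the Fabp6-high cells alone. These cells carried 13.8% and 14.4% of the Slc51a UMIs of ketogenic enterocytes and 13.2% and 9.63% of those of control enterocytes, and 27.8% and 20.5% of the Slc51b UMIs of ketogenic enterocytes, against 12.4% and 20.5% of those of control enterocytes. In enterocytes with 0 Fabp6 UMIs, a class chosen after seeing the data, Slc51a stood at 44.7 and 39.1 CPM in the ketogenic libraries and 81.6 and 52.2 CPM in the control libraries. The log2 fold change there was -0.66 ± 0.21 (edgeR adjusted p = 0.389), about that of all enterocytes. Slc51b gave -1.14 ± 0.36 (edgeR adjusted p = 0.384), from the 11.4 and 11.7 CPM of the ketogenic libraries and the 36.4 and 15.4 CPM of the control libraries given earlier. Without control library 1 these were -0.32 and -0.42, and without control library 2 they were -0.96 (edgeR adjusted p = 0.00192) and -1.65 (edgeR adjusted p = 5.61e-05). None of the 4 genes tested in this class was called with all 4 libraries by edgeR (background 0.216% of 11574 genes), and 3 had an unadjusted p under 0.05, as had 9.98% of all genes.

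Within the Fabp6-high enterocytes the exporter genes were not lower in both ketogenic libraries. Slc51a, at 1184 and 492 CPM in the ketogenic and 349.8 and 658 CPM in the control libraries, overlapped between diets, and its log2 fold change was 0.87 ± 0.58 (edgeR adjusted p = 1.00). Slc51b, at 723 and 229 CPM against 145 and 475 CPM, overlapped too, with 0.77 ± 0.78 (edgeR adjusted p = 1.00). Only 7 to 69 cells per library enter this comparison. No gene of the 2585 tested there was called (0%), and 21 had an unadjusted p under 0.05. In enterocytes with at least 1 UMI of the distal list, which held 58.4% to 78.5% of enterocytes, Slc51a had a log2 fold change of -0.57 ± 0.17 (edgeR adjusted p = 0.250) and Slc51b of -0.95 ± 0.24 (edgeR adjusted p = 0.194), with none of 5 called, 3 at an unadjusted p under 0.05 and a background of 0.409% called and 12.3% at such a p. Fabp6 in the same cells had -0.30 ± 0.50 (edgeR adjusted p = 0.845) and Nr1h4 0.43 ± 0.13 (edgeR adjusted p = 0.271). In transit amplifying cells Slc51a stood at 11.7 and 16.4 CPM in the ketogenic libraries and at 20.3 and 19.1 CPM in the control libraries, without overlap (as for 21% of genes in that direction), with -0.46 ± 0.19 (edgeR adjusted p = 0.471).

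Nr1h4 was higher in both ketogenic libraries in 4 cell types, without a call in any. In enterocytes it stood at 21.1 and 20.6 CPM in the ketogenic libraries and at 17.1 and 14.0 CPM in the control libraries. The groups did not overlap, as for 21.3% of all genes in that direction, and the log2 fold change was 0.43 ± 0.14 (edgeR adjusted p = 0.384). In transit amplifying cells it stood at 10.9 and 15.0 CPM in the ketogenic libraries and 7.92 and 7.27 CPM in the control libraries, a log2 fold change of 0.80 ± 0.24 (edgeR adjusted p = 0.222), where 17.5% of genes were higher without overlap. Goblet cells had 18.1 and 18.5 CPM in the ketogenic libraries and 14.2 and 11.3 CPM in the control libraries, a log2 fold change of 0.52 ± 0.19 (edgeR adjusted p = 0.345), where 20% of genes were higher without overlap. Stem cells had 9.93 and 15.3 CPM in the ketogenic libraries and 9.89 and 6.91 CPM in the control libraries, a log2 fold change of 0.71 ± 0.32 (edgeR adjusted p = 0.700), where ketogenic library 1 and control library 1 were practically equal and 16.9% of genes were higher without overlap. These cell types share the same 4 libraries and are not independent. Tuft cells went the other way, at 6.86 and 8.16 CPM in the ketogenic libraries and 15.4 and 9.88 CPM in the control libraries, from 6 to 9 UMIs per library, where 14.7% of genes were lower without overlap. Leaving out any 1 library kept the enterocyte value between 0.29 and 0.57.

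**Figure D5:**
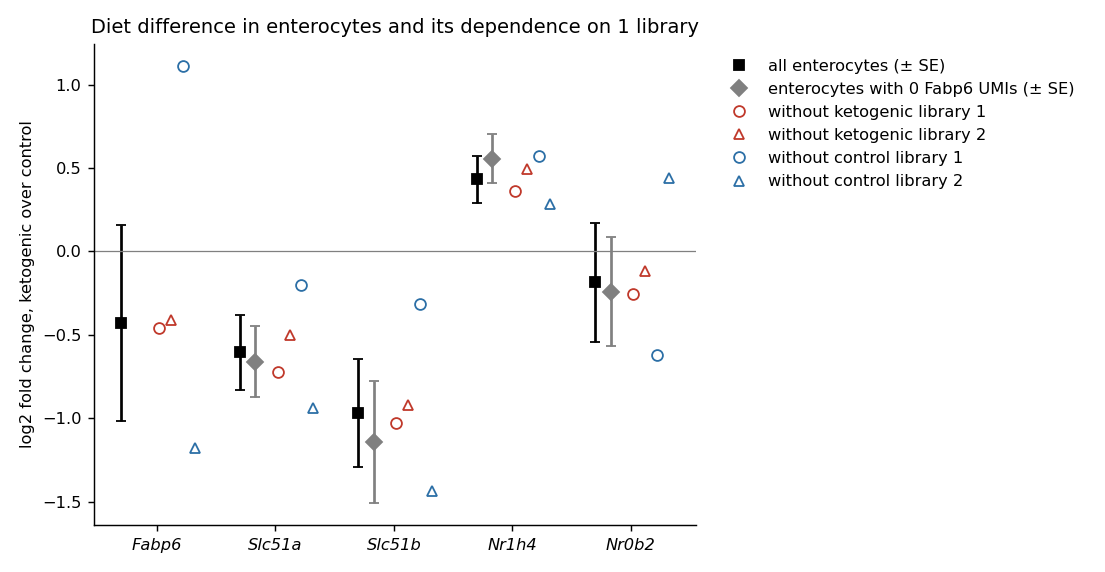
Log2 fold change, ketogenic over control, of the 5 tested genes in all enterocytes (black squares) and, for the 4 tested there, in enterocytes with 0 Fabp6 UMIs (grey diamonds), with standard errors; open symbols give all enterocytes with 1 library left out. Fabp6 is at 1.11 without control library 1 and at -1.18 without control library 2, while Nr1h4 stays between 0.29 and 0.57.

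Nr0b2, the corepressor that FXR induces, had 3.95 and 3.84 CPM in ketogenic enterocytes and 2.86 and 5.96 CPM in control enterocytes, with the ketogenic libraries between the control ones. Its log2 fold change was -0.18 ± 0.36 (edgeR adjusted p = 0.890). Slc10a2 had 11 and 4 UMIs in ketogenic enterocytes (0.736 and 0.244 CPM) and 4 and 11 in control enterocytes (0.220 and 0.565 CPM), and its exact 95% Poisson intervals overlapped among all 4 libraries. Fgf15 had 4 and 0 UMIs in ketogenic enterocytes and 3 and 3 in control enterocytes. The count of 0 in ketogenic library 2 allows up to 0.183 CPM (3 counts of its total), which is above the 0.165 and 0.154 CPM of the control libraries, so no difference was detectable at this depth. Slc10a2 and Fgf15 did not pass the filter on low counts in enterocytes and were not tested there.

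Of 29 further genes of bile acid synthesis, transport and sensing, 20 could be tested in enterocytes. None was called by edgeR or DESeq2, with 6 and 5 at an unadjusted p under 0.05, against 9.91% and 6.37% of all genes at such a p and 0.18% called by edgeR. Their median log2 fold change was 0.05, and 0.02 over all genes. Abcb11, Cyp7a1, Cyp7b1 and Cyp8b1, genes of the hepatocyte, had 0 UMIs in all cells. The 6 with the highest level were Hnf4a, a master regulator of enterocyte genes, at 179.5 and 179 CPM in the ketogenic libraries, against 223 and 182 CPM in the control libraries, Vdr, the vitamin D receptor, which also senses lithocholic acid, at 169 and 154 CPM, against 116 and 147 CPM, and Nr3c1, the glucocorticoid receptor, at 76.4 and 71.1 CPM, against 80.6 and 75.0 CPM. The others were the efflux pump Abcg2 at 46.0 and 44.6 CPM in the ketogenic libraries, against 60.9 and 54.9 CPM in the control libraries, the xenobiotic receptor Nr1i2 (PXR) at 32.7 and 26.2 CPM, against 30.7 and 27.1 CPM, and the transcription factor Maf at 23.1 and 18.8 CPM, against 34.7 and 29.4 CPM. Their log2 fold changes lay between -0.60 for Maf (edgeR adjusted p = 0.269) and 0.31 for Vdr (edgeR adjusted p = 0.563). Of 4 ileal defence genes that FXR agonists are known to induce in mice (Nos2, Il18, Car12 and Ang), 1 changed, where 0.103% of all genes fell: Il18, an inflammatory cytokine of epithelial cells, fell to 19.5 and 18.1 CPM in ketogenic enterocytes, against 71.4 and 62.7 CPM in control enterocytes, a log2 fold change of -1.82 ± 0.13 (edgeR adjusted p = 0.00784). The set did not move as 1. Car12 went the other way without a call, at 15.4 and 16.7 CPM in ketogenic and 10.5 and 14.1 CPM in control enterocytes. Those groups did not overlap, as for 21.3% of all genes in that direction. Ang and Nos2 overlapped between the diets.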

How the data were processed

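The values are raw UMI counts, which the authors deposited for the cells of all libraries together, beside a cell table with library names and 7 cell types. The submitters' processing notes name Cell Ranger 2.1.0 and mm10. How cells were filtered, doublets handled and types assigned is not given in the sources. Types were kept as deposited and no doublets were removed.

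Because cells are not replicates, UMIs of each gene were added up within a library, once for the full library and once per cell type. These sums were tested with edgeR 4.0.16 in R 4.3.3 (quasi-likelihood test, TMM, filterByExpr by diet, ketogenic over control), with Benjamini-Hochberg adjustment over all genes tested and a threshold of 0.05. Standard errors were computed as the fold change divided by the root of F. The interaction of diet and type was fitted with library as a block. CPM values divide by the UMIs of the same cells. Shares have exact binomial and levels exact Poisson 95% intervals, which cover counting error only. Totals per library were 27316428 to 34106639 UMIs.

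Alternatives were DESeq2 1.42.0, RLE factors, no low-count filter, cells under 10% mitochondrial UMIs, thinned sums, an equal mix of types, a replicate block, stricter classes and leaving out each library. With a library left out, its diet has 1 library, whose spread is taken to equal that of the other diet. Enterocytes with 0 Fabp6 UMIs and the region covariate were added after seeing the data. The edgeR steps were tested on simulated data. Named genes are the 7 members, region and defence list genes on which a result turns, the 6 highest pathway partners in enterocytes, and the 10 genes most like and 5 least like Fabp6 among those found in at least 5% of enterocytes of every library. Of the region markers and the genes shown in Fabp6-high cells, the ones printed were picked after their values were seen. The members and lists were chosen with earlier results of these data known.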

Additional observations from a re-analysis of the deposited data

Results flagged for a closer look

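The diet effect on Fabp6 differed between enterocytes and transit amplifying cells. The log2 fold change in enterocytes minus that in transit amplifying cells was 1.51 ± 0.28 (edgeR adjusted p = 0.0137), in a fit of both types of all 4 libraries. Leaving out each library gave 0.52 to 1.77, and the lowest value, without control library 1, was no longer a call (edgeR adjusted p = 1). In that library 4 Fabp6-high cells annotated as transit amplifying held 127 of 174 Fabp6 UMIs, and its level without them was 11.8 CPM. Fabp6 in transit amplifying cells without Fabp6-high cells was 4.78 and 5.99 CPM in the ketogenic libraries and 11.8 and 3.54 CPM in the control libraries, so the diets overlapped.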

How the results depend on the processing

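Leaving out 1 library mattered most. The number of members called then ranged from 0 to 3 over all cells, in enterocytes and in distal-marker enterocytes, from 0 to 1 in stem cells and in transit amplifying cells, and from 0 to 1 for the difference between enterocytes and transit amplifying cells. The Fabp6 log2 fold change ranged from -1.41 to 1.01 over all cells, from -1.18 to 1.11 in enterocytes, from -2.94 to 0.60 in transit amplifying cells and from -0.97 to 0.95 in distal-marker enterocytes, positive only without control library 1. Nr0b2 in enterocytes ranged from -0.62 to 0.44, and in Fabp6-high enterocytes Slc51a ranged from -0.092 to 1.42 and Slc51b from -0.45 to 1.79. The difference in the Fabp6-high share ranged from -2.39 to 0.27 percentage points. Calls among all enterocyte genes numbered 21 with 4 libraries, and 12 and 32 without ketogenic libraries 1 and 2, against 228 and 760 without control libraries 1 and 2. With no filter on low counts, 2 members were called over all cells (Slc51a at -0.75, edgeR adjusted p = 0.0173, and Slc51b at -1.09, edgeR adjusted p = 0.0115) and 1 in enterocytes (Slc51b at -0.98); more genes enter that fit, and the cause was not tested. The region covariate put Fabp6 in enterocytes at 0.068 and gave 118 calls, and DESeq2 gave 176. A threshold of 50 Fabp6 UMIs per 10000 put Slc51b in Fabp6-high cells at -0.052.

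Replicate numbers in the titles were not shown to pair the libraries (r = 0.08 between ketogenic 1 and control 1 over 11697 genes). With the replicate block none of the 5 members was called in enterocytes, Fabp6 was at -0.04, Slc51a at -0.56, Slc51b at -0.88 and Nr1h4 at 0.44, and calls among all genes rose to 137. Apart from the alternatives added last, 187 recomputed values kept their direction and their side of the threshold, 13 passed the threshold only under the alternative, 1 no longer passed it, 11 counts moved by over 1.5 times and 9 changed sign. Under the added ones 10 kept direction and side and 1 changed sign. Counts of 0 to 11 UMIs per library in enterocytes limit Slc10a2 and Fgf15 to statements of presence there. Over all cells Slc10a2 had 13 and 5 UMIs in the ketogenic libraries and 5 and 13 in the control libraries.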
